A study of Mus musculus with 16 samples.

Results

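10 genes known from macrophages were followed in cultured mouse hepatocytes: *Lyz2*, *Cd68*, *Cd5l*, *Clec4f*, *Adgre1*, *Csf1r*, *Marco*, *C1qa*, *Gpnmb* and *Mmp12*. They were picked by symbol and make up 10 of the 55450 genes in the count table. *Mmp12* was on the list because earlier results of these data had shown it higher with itaconate, so the itaconate effect without lipid is given below as a description with no test. The cells were primary hepatocytes of wild-type mice, cultured in medium with fetal bovine serum and insulin-transferrin-selenium and treated overnight. There were 4 groups of 4 libraries: untreated (UT), 10 mM sodium itaconate (ITA), a chemically defined lipid mixture at a dilution of 1:10 (lipid), and itaconate with lipid (lipid + ITA). The lipid mixture holds cholesterol and 6 saturated and unsaturated fatty acids, arachidonic and oleic acid among them. All groups thus shared the genotype, the serum and the culture, and no group was freshly isolated tissue. The hepatocytes were prepared by enzyme perfusion of the liver and low-speed centrifugation. The study reported high purity, judged by eye from the shape and size of the cells, and no sort that removes macrophages is described. Libraries carry replicate letters A to D, with 1 library of each treatment under every letter. The labels do not say whether the letters are separate animals, so p-values measure only the spread between these samples.

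Kupffer cells are the resident macrophages of the liver. They line the sinusoids, clear particles and dying cells from the blood through scavenger and lectin receptors, and depend on signalling through the CSF1 receptor. Activated macrophages are also the main producers of itaconate, which the enzyme ACOD1 makes from a tricarboxylic acid cycle intermediate. Of the 10 genes, *Clec4f* and *Cd5l* mark mouse Kupffer cells, *Adgre1* (F4/80) and *Csf1r* mark macrophages at large, and *Marco* is a scavenger receptor. *Cd68* encodes a protein of late endosomes and lysosomes, *Lyz2* encodes lysozyme of myeloid cells, and *C1qa* encodes a chain of complement C1q. *Gpnmb* encodes a lysosomal and surface glycoprotein seen in lipid-laden macrophages. *Mmp12* encodes macrophage elastase, a secreted protease that cleaves elastin.

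The libraries held 22346049 to 35512004 expected counts, with 22346049 to 28619798 in UT and 27211869 to 35512004 in ITA. Lipid libraries held 23562859 to 28558693 and lipid + ITA libraries 25812579 to 35378517. Mitochondrial genes took 3.27% to 4.97% of the counts in 15 libraries and 6.01% in lipid + ITA library C. Values are given as CPM, counts scaled to normalised library size, and comparisons between genes as RPKM, which also divides by exon length. Hepatocyte markers dominated every library. *Alb*, the gene of serum albumin, averaged 33500 CPM, and the 9 hepatocyte genes found in the table summed to 33800 to 59400 CPM.

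All 10 macrophage genes passed the filter of a mean of at least 1 CPM over 16 libraries, as 11675 genes did. Their counts ran from 17 for *Adgre1* in a lipid + ITA library to 8596 for *Cd68* in a lipid library. Group means were under 16 CPM for 9 of them, and *Cd68* stood apart. In UT, the mean level of *Cd68* was 156 ± 33.2 RPKM (SD, n = 4). *Cd5l* followed at 6.66 ± 0.507 RPKM and *Marco* at 5.29 ± 0.861 RPKM. Next came *C1qa* at 4.42 ± 1.4 RPKM and *Lyz2* at 4.22 ± 0.77 RPKM, a difference smaller than either SD. *Gpnmb* was at 2.37 ± 0.739 RPKM and *Clec4f* at 1.04 ± 0.303 RPKM. The lowest were *Adgre1* at 0.675 ± 0.215 RPKM, *Mmp12* at 0.594 ± 0.134 RPKM and *Csf1r* at 0.441 ± 0.2 RPKM. Neighbours among these 3 differed by less than the larger of their SDs. In ITA, *Mmp12* reached 1.12 ± 0.322 RPKM, above *Clec4f* at 0.934 ± 0.172 RPKM by less than the SD of *Mmp12*. These ranks depend on the exon length, taken as the union over all annotated transcripts, which was 7237 bases for *Mmp12* and 2471 for *Clec4f*. In CPM, the UT means were 4.3 for *Mmp12*, 2.56 for *Clec4f*, 2.55 for *Csf1r* and 2.19 for *Adgre1*. The genes lie on separate chromosomes, apart from *Clec4f* (GRCm38, chr6:83644542-83656187, minus strand) and *Gpnmb* (chr6:49036546-49070929, plus strand), and *Mmp12* spans chr9:7344381-7369499 on the plus strand. In bulk libraries, fewer cells of a type and less RNA per cell cannot be told apart. *Lyz1*, the close paralogue of *Lyz2*, had 0 to 3 counts in a library, and *Mmp1b*, whose exons overlap those of *Mmp12* on the other strand, had 0 in all. *Hmgxb3*, which overlaps *Csf1r* on the other strand, had 1122 to 1999 counts. The library kit kept strand, but the strand setting of the counting is not given in the sources used here, so the *Csf1r* values may hold reads of its neighbour.

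**Figure D1:**
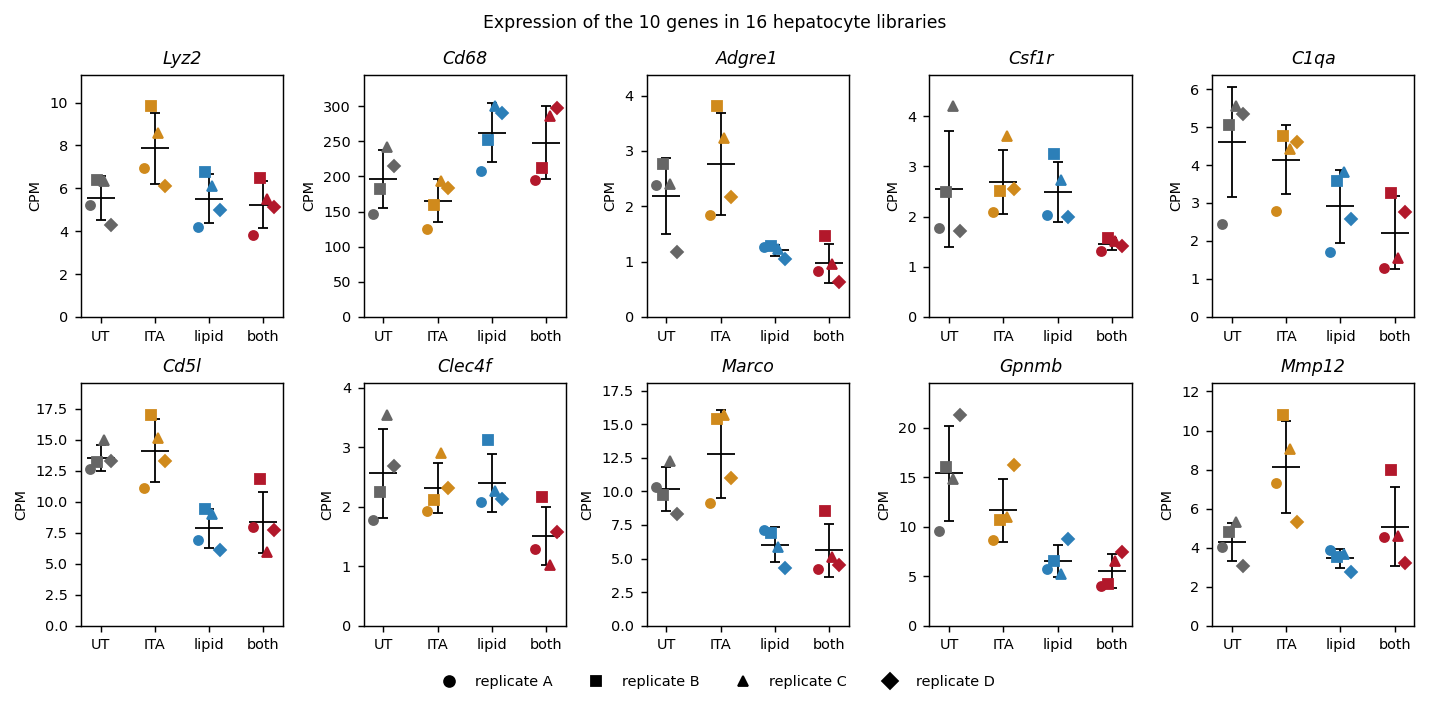
Levels of the 10 genes in CPM (vertical axes, from 0) in the 4 groups UT, ITA, lipid and lipid + ITA (shown as both). Each point is 1 library with its replicate letter as the shape, and the bar and whiskers are the mean and SD of 4. *Cd68* lies between 125 and 300 CPM, while the other 9 genes stay at or below 21.3 CPM.

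Promoter sequence is shown for *Mmp12*, for *Cd68*, the 1 gene of the 10 that rose with lipid, and for *Marco* and *Cd5l*, which fell with lipid. RefSeq windows (GRCm38.p6) were found for 7 of the 10 genes, with 2 start sites for *Mmp12*. The 250 bases upstream of each start are printed 5′ to 3′ on the gene's own strand. Capitals mark matches on either strand to motifs bound by myeloid and stress-responsive factors: the PU.1 core GAGGAA, AP-1 TGANTCA, the E-box CACGTG, the M-box CATGTG and C/EBP TTGCNNAA, none of which overlap here.
*Mmp12* first start, chr9:7344147-7344396, plus strand: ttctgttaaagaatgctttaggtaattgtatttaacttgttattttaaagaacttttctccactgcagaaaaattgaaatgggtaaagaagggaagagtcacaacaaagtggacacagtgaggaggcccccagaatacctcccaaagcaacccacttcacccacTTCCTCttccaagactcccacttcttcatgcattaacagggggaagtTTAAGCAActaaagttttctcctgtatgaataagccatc
*Mmp12* second start, chr9:7347124-7347373, plus strand: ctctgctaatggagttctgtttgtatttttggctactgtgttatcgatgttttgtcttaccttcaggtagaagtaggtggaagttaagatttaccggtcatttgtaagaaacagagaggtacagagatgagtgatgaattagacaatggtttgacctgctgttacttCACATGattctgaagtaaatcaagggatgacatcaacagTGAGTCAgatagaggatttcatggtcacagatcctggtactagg
*Cd68*, chr11:69666171-69666420, minus strand: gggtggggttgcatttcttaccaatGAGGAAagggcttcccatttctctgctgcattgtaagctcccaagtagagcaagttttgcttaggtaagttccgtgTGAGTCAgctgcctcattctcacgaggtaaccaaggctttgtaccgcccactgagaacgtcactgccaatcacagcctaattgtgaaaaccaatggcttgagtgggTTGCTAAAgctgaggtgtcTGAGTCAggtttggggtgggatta
*Marco*, chr1:120505025-120505274, minus strand: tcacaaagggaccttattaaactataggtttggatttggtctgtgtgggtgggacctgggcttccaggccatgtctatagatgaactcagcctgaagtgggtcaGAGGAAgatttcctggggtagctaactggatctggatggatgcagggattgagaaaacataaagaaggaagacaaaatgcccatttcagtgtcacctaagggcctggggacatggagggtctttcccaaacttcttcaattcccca
*Cd5l*, chr3:87357631-87357880, plus strand: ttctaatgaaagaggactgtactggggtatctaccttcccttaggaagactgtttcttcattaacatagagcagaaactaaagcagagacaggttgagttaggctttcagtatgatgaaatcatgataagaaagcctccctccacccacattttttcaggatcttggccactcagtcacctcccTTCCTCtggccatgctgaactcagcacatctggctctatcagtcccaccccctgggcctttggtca
The PU.1 core was found in the first *Mmp12* window (beginning 86 bases upstream), in *Cd68* (225), *Marco* (146) and *Cd5l* (66). That is 4 of the 8 windows of these genes, against 23.3% of 32851 windows of the same length. AP-1 letters stood in *Cd68* at 149 and 24 bases upstream and in the second *Mmp12* window at 44, against 6.75% of all windows. C/EBP letters stood in *Cd68* at 43 and in the first *Mmp12* window at 39 (9.56% of all windows). The M-box stood only in the second *Mmp12* window, at 83 (12.3%), and the E-box in none of the 8 (6.02%). The windows of *Gpnmb*, which also fell with lipid, *Lyz2* and *Clec4f* are not printed and held none of these motifs. A match describes letters in the window and is not a measured binding site.

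The lipid mixture was compared with no lipid in each itaconate state, which asks how a load of fatty acids and cholesterol changed these genes. Without itaconate, 5 of the 10 genes fell and 1 rose. *Gpnmb*, *Adgre1*, *Cd5l*, *Marco* and *C1qa* were lower with lipid, *Cd68* was higher, and *Lyz2*, *Csf1r* and *Clec4f* did not pass the test. For *Mmp12*, which was not among the calls, this comparison is a description with no test, as its UT values were part of its choice. The 6 calls stand beside 47.5% of all genes tested that were called in this comparison, 23.7% lower and 23.8% higher. In the presence of itaconate, the 9 genes other than *Mmp12* were all called, 8 lower and *Cd68* higher, beside 47.0% of all genes tested, 23.5% in each direction. *Mmp12* was also lower there, but its high ITA values placed it on the list, so its fall from them is a description with no test. Over the 10 genes, *Mmp12* included, the log2 fold change had a median of −0.48 without and −0.82 with itaconate, against 0.00473 and 0.00407 over all genes tested. Groups did not overlap for 3 genes without itaconate, all lower, beside 32.5% of all genes tested, 15.9% lower and 16.6% higher. With itaconate they did not overlap for 5, of which 4 were lower, beside 31.4%, with 14.8% lower and 16.6% higher. The comparison without itaconate shares the UT libraries, and that with itaconate the ITA libraries, with the comparison on which *Mmp12* was chosen.

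**Figure D2:**
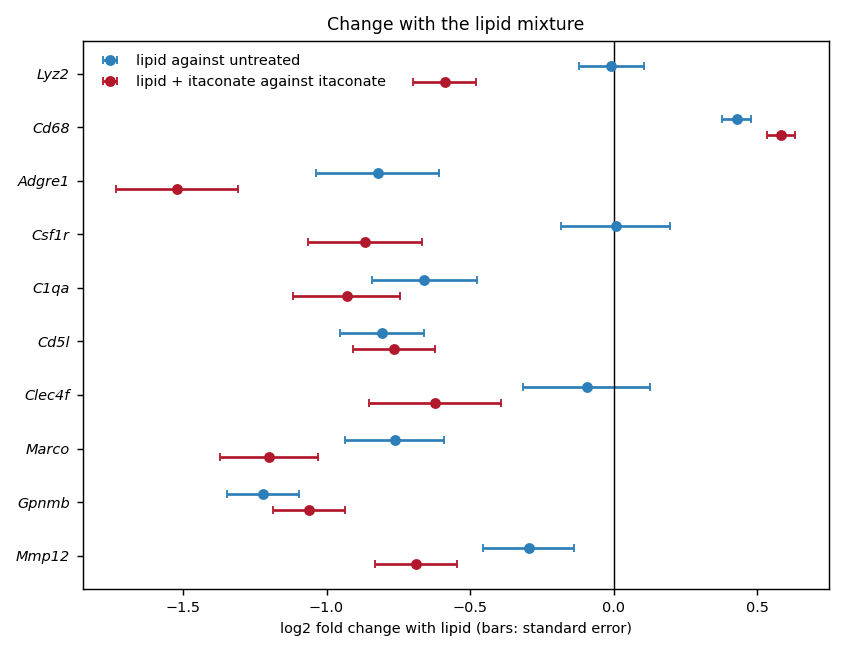
Log2 fold change with the lipid mixture (horizontal axis) for each gene, without itaconate (blue) and in its presence (red). Points are edgeR estimates from 4 libraries a group and bars are standard errors. *Cd68* lies to the right of 0 in both comparisons, and *Gpnmb*, *Adgre1*, *Marco*, *C1qa* and *Cd5l* to the left in both.

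*Gpnmb*, the glycoprotein gene linked to lipid-laden macrophages, had the largest fall with lipid alone among the 10. In UT it was at 9.6, 16.0, 14.8 and 21.3 CPM in libraries A to D, and in lipid at 5.69, 6.51, 5.19 and 8.74 CPM. Every lipid library lay below every UT library. The log2 fold change was −1.22 (SE 0.125, adjusted p = 1.79e-06). With itaconate present it went from 8.7, 10.7, 11.0 and 16.2 CPM to 3.99, 4.24, 6.5 and 7.49 CPM, again with no overlap (log2 fold change −1.06, SE 0.126, adjusted p = 9.12e-06). Letter D was the highest of its group each time.

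Among the receptors for particles and apoptotic material, *Marco* fell in both comparisons. It was at 10.3, 9.75, 12.3 and 8.35 CPM in UT and at 7.11, 6.88, 5.84 and 4.29 CPM in lipid. It was at 9.1, 15.4, 15.7 and 11.0 CPM in ITA and at 4.24, 8.55, 5.11 and 4.53 CPM in lipid + ITA. The groups were separate in both comparisons, with log2 fold changes of −0.76 (SE 0.173, adjusted p = 0.00205) and −1.20 (SE 0.17, adjusted p = 4.67e-05). *Clec4f*, the lectin receptor of Kupffer cells, was at 1.78, 2.25, 3.54 and 2.68 CPM in UT and at 2.07, 3.12, 2.27 and 2.13 CPM in lipid. These groups overlapped fully (log2 fold change −0.09, SE 0.221, adjusted p = 0.749). With itaconate it went from 1.92, 2.11, 2.9 and 2.31 CPM to 1.28, 2.16, 1.02 and 1.57 CPM, lower in 3 of 4 letters. That call (log2 fold change −0.62, SE 0.23, adjusted p = 0.0366) was lost in 8 of 15 alternative settings, with an adjusted p of 0.0632 without the replicate block and 0.152 without lipid + ITA library C, which had the highest mitochondrial share. Leaving out 1 of the ITA libraries A, C or D, or the lipid + ITA libraries A or D, also ended it.

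*Cd5l*, which encodes a secreted inhibitor of apoptosis made by tissue macrophages, was at 12.6, 13.2, 15.0 and 13.3 CPM in UT and at 6.91, 9.37, 9.0 and 6.14 CPM in lipid. All 4 lipid libraries lay below the UT libraries (log2 fold change −0.81, SE 0.146, adjusted p = 0.000341). In ITA it was at 11.1, 17.0, 15.1 and 13.3 CPM and in lipid + ITA at 7.97, 11.8, 5.93 and 7.68 CPM. There the groups touched, as lipid + ITA library B stood above ITA library A (log2 fold change −0.77, SE 0.143, adjusted p = 0.000516). *C1qa* was at 2.44, 5.05, 5.55 and 5.35 CPM in UT and at 1.71, 3.57, 3.81 and 2.57 CPM in lipid. It was lower in 4 of 4 letters with overlapping groups (log2 fold change −0.66, SE 0.182, adjusted p = 0.00763), and without the replicate block the adjusted p was 0.11. With itaconate it went from 2.79, 4.77, 4.41 and 4.61 CPM to 1.28, 3.27, 1.56 and 2.77 CPM (log2 fold change −0.93, SE 0.186, adjusted p = 0.000859).

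Of the general macrophage receptors, *Adgre1* fell in both comparisons. It was at 2.39, 2.77, 2.41 and 1.18 CPM in UT and at 1.26, 1.28, 1.22 and 1.05 CPM in lipid. The lipid libraries were close together, and UT library D lay among them (log2 fold change −0.82, SE 0.214, adjusted p = 0.00521). With itaconate it went from 1.85, 3.81, 3.24 and 2.16 CPM to 0.826, 1.46, 0.948 and 0.637 CPM, with no overlap and the largest fold change of the 10 genes in that comparison (log2 fold change −1.52, SE 0.211, adjusted p = 3.83e-05). *Csf1r* was at 1.78, 2.49, 4.2 and 1.71 CPM in UT and at 2.03, 3.24, 2.72 and 1.99 CPM in lipid, and the groups overlapped (log2 fold change 0.01, SE 0.19, adjusted p = 0.982). It was at 2.1, 2.51, 3.61 and 2.54 CPM in ITA and at 1.31, 1.58, 1.52 and 1.42 CPM in lipid + ITA. Every lipid + ITA library lay below every ITA library (log2 fold change −0.87, SE 0.198, adjusted p = 0.00223).

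The lysosomal genes *Cd68* and *Lyz2* went different ways. *Cd68* was at 146, 182, 242 and 215 CPM in UT and at 207, 252, 300 and 290 CPM in lipid, higher in 4 of 4 letters. The group ranges overlapped because the letters differed (log2 fold change 0.43, SE 0.049, adjusted p = 5.36e-06), and without the replicate block the adjusted p was 0.0726. With itaconate it went from 125, 160, 194 and 183 CPM to 195, 212, 286 and 298 CPM, with no overlap (log2 fold change 0.58, SE 0.0491, adjusted p = 4.37e-07). *Lyz2* was at 5.2, 6.39, 6.35 and 4.28 CPM in UT and at 4.18, 6.77, 6.12 and 5.0 CPM in lipid, 2 letters higher and 2 lower (log2 fold change −0.01, SE 0.113, adjusted p = 0.953). With itaconate it went from 6.93, 9.83, 8.59 and 6.11 CPM to 3.81, 6.47, 5.49 and 5.13 CPM, lower in 4 of 4 letters (log2 fold change −0.59, SE 0.109, adjusted p = 0.000477).

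*Mmp12* was at 4.03, 4.81, 5.3 and 3.07 CPM in UT and at 3.9, 3.54, 3.65 and 2.77 CPM in lipid. It was lower in 4 of 4 letters, by as little as 0.05 on the log2 scale in 1 of them (log2 fold change −0.30, SE 0.158). *Mmp12* was chosen on its UT values too, so this is a description with no test. With itaconate it went from 7.29, 10.8, 9.07 and 5.33 CPM to 4.55, 7.97, 4.57 and 3.22 CPM, lower in 4 of 4 letters with overlapping groups (log2 fold change −0.69, SE 0.143). ITA libraries B and C were the highest of the 16.

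Itaconate was next compared within the lipid-treated cells, a comparison that shares no library with the one that chose *Mmp12*. None of the 10 genes passed the edgeR test, beside 2.58% of all genes tested that were called (1.32% higher and 1.26% lower). The 301 genes behind that share became 889 without lipid + ITA library C, 59 to 190 without any other library of these groups, and 9 without the replicate block. In all, 3 had an unadjusted p under 0.05, *Csf1r* and *Clec4f* lower and *Mmp12* higher. DESeq2 called 1 of the 10, *Csf1r*, beside 4.36% of all genes tested, and limma-trend called 0, beside 2.42%. The median change of the 10 genes on the log2 scale was −0.19, against −0.000132 over all genes tested.

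*Mmp12* went from 3.9, 3.54, 3.65 and 2.77 CPM in lipid to 4.55, 7.97, 4.57 and 3.22 CPM in lipid + ITA. It was higher in 4 of 4 letters, by between 0.22 and 1.17 on the log2 scale, with library B farthest from the rest. The log2 fold change was 0.51 (SE 0.154, unadjusted p = 0.00487, adjusted p = 0.0929). The adjusted p was 0.0122 with no filter on low counts and 0.0292 without lipid + ITA library C, the library with the highest mitochondrial share, whose part in the result was not tested. It was 0.506 without the replicate block and 0.367 with lipid and lipid + ITA libraries fitted alone. Leaving out lipid library B gave 0.278, and leaving out lipid + ITA library B gave 0.305. In the same comparison *Csf1r* went from 2.03, 3.24, 2.72 and 1.99 CPM to 1.31, 1.58, 1.52 and 1.42 CPM. It was lower in 4 of 4 letters and the groups did not overlap. It was the 1 gene of the 10 with that separation, which 5.82% of all genes tested showed, 2.96% higher and 2.85% lower. Its log2 fold change was −0.76 (SE 0.201, unadjusted p = 0.00169, adjusted p = 0.0568), and the adjusted p was 0.0273 with DESeq2 and 0.00638 with no filter. It was 0.35 without the replicate block, 0.22 with lipid and lipid + ITA libraries fitted alone, and 0.173 without lipid library B.

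*Clec4f* went from 2.07, 3.12, 2.27 and 2.13 CPM in lipid to 1.28, 2.16, 1.02 and 1.57 CPM in lipid + ITA, lower in 4 of 4 letters with overlapping groups (log2 fold change −0.67, SE 0.231, unadjusted p = 0.0103, adjusted p = 0.139). With no filter its adjusted p was 0.0272, and without the replicate block it was 0.376. The other 7 genes had log2 fold changes from −0.40 for *C1qa* (SE 0.193, adjusted p = 0.299) to 0.09 for *Cd5l* (SE 0.149, adjusted p = 0.814). Neither *Cd68*, at −0.09 (SE 0.0487, adjusted p = 0.367), nor *Lyz2*, at −0.08 (SE 0.113, adjusted p = 0.754), passed the test.

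**Figure D3:**
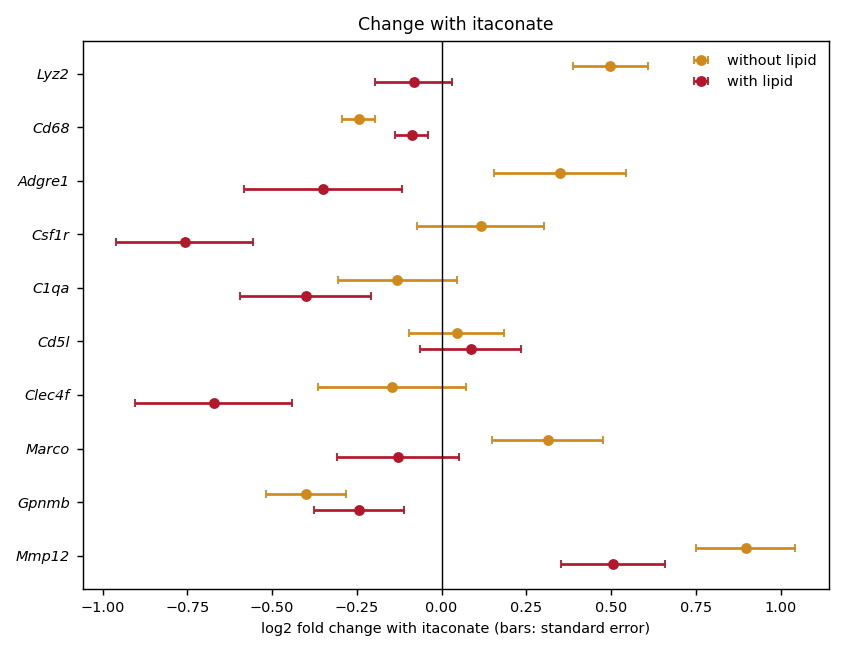
Log2 fold change with itaconate (horizontal axis) for each gene, without lipid (yellow) and with lipid (red). Points are edgeR estimates from 4 libraries a group and bars are standard errors. *Mmp12* lies to the right of 0 in both comparisons, at 0.90 and 0.51, and *Csf1r* and *Clec4f* lie farthest to the left with lipid.

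Without lipid, the values of itaconate against UT are a description, since this comparison placed *Mmp12* on the list. *Mmp12* averaged 4.3 ± 0.973 CPM in UT and 8.11 ± 2.33 CPM in ITA (SD, n = 4). The highest UT library, C at 5.3 CPM, lay just under the lowest ITA library, D at 5.33 CPM, and within each letter the log2 ratio was 0.78 to 1.16. The fitted fold change was 1.86 (log2 0.90, SE 0.147). *Lyz2* averaged 5.56 ± 1.01 CPM in UT and 7.86 ± 1.67 CPM in ITA, higher in 4 of 4 letters (log2 fold change 0.50, SE 0.11). *Cd68* averaged 196 ± 41.8 CPM in UT and 165 ± 30.6 CPM in ITA, lower in 4 of 4 letters (log2 fold change −0.24, SE 0.0491). *Gpnmb* was also lower in 4 of 4 letters (log2 fold change −0.40, SE 0.118), from 15.4 ± 4.81 to 11.6 ± 3.19 CPM. The other 6 genes had mixed directions among letters, with log2 fold changes between −0.15 for *Clec4f* (SE 0.219) and 0.35 for *Adgre1* (SE 0.194). Past the threshold stood 3 of the 10, 2 higher and 1 lower, where 4.91% of all genes tested were (1.96% higher and 2.95% lower), and 1 of the 10 had groups that did not overlap, where 7.53% of all genes tested did (3.67% higher and 3.86% lower). Nothing is read from these counts, because the comparison was used to choose *Mmp12*.

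Whether the itaconate effect differed with lipid was fitted as an interaction, in which a negative value means a smaller rise or larger fall in the presence of lipid. None of the 10 genes passed the edgeR test, and 1 gene of all 11675 tested did (0.00857%), the chemokine gene *Cxcl10*, which was named after its values were seen. Limma-trend also called 0 of the 10, and DESeq2 gave an adjusted p only for *Cd68*, which it did not call. An unadjusted p under 0.05 was found for 4. *Lyz2* had an interaction of −0.58 on the log2 scale (SE 0.157, unadjusted p = 0.00206, adjusted p = 0.279), with a log2 fold change of 0.50 without lipid and −0.08 with it. *Csf1r* had −0.87 (SE 0.275, unadjusted p = 0.006, adjusted p = 0.363). *Adgre1* had −0.70 (SE 0.303, unadjusted p = 0.0347, adjusted p = 0.543) and *Cd68* had 0.16 (SE 0.0692, unadjusted p = 0.039, adjusted p = 0.548). For *Mmp12* the value was −0.39 (SE 0.213), a description only.

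The replicate letters carried part of the spread in these genes. Over the 40 cases of a gene in a group, letter A was lowest in 23 and highest in 2, whereas letter B was highest in 20 and lowest in 0. Letter C was highest in 13 and lowest in 3, and letter D was highest in 5 and lowest in 14. *Cd68* was lowest in letter A in every group. *Mmp12* was lowest in letter D in every group and highest in letter B in ITA and lipid + ITA. What differed between the letters is not given in the sources used here.

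**Figure D4:**
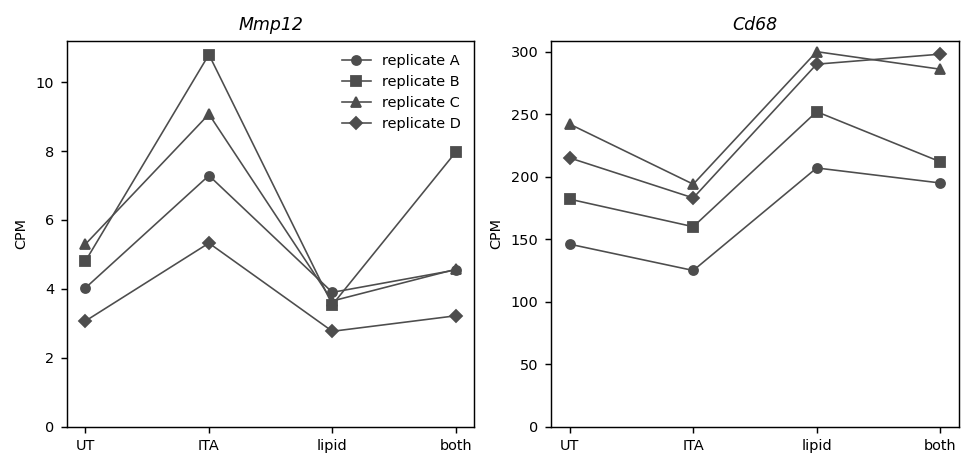
*Mmp12* (left) and *Cd68* (right) in CPM (vertical axes, from 0) in the 4 groups, with a line for each replicate letter. Within every letter *Mmp12* is higher in ITA than in UT and in lipid + ITA (shown as both) than in lipid, while *Cd68* is higher in each lipid group than in its group without lipid.

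Other macrophage genes were counted from lists of known markers. Of 17 pan-macrophage genes, 10 passed the filter. Lipid lowered 6 of the 10 without itaconate and 8 with it, and raised 0 in both, beside 23.7% and 23.5% of all genes tested that were called lower. Their median log2 fold changes were −0.37 and −0.60. Of the 6 calls, those of *Mertk*, *C1qb* and *Cd14* were lost in 5, 3 and 1 of 15 alternatives, and of the 8, those of *Mertk* and *Cybb* in 6 and 1. *Mertk* and *Cybb* were named after their values were seen. *Mpeg1*, which encodes the pore-forming protein perforin-2, went from 50.9 ± 14.3 CPM in UT to 16.1 ± 3.58 CPM in lipid (SD, n = 4; log2 fold change −1.63, SE 0.146, adjusted p = 4.46e-07). With itaconate it fell by 1.45 on the log2 scale (SE 0.147, adjusted p = 2.15e-06). *C1qc*, another C1q chain, fell by 0.85 (SE 0.223, adjusted p = 0.00553) and with itaconate by 1.34 (SE 0.231, adjusted p = 0.000265). With itaconate present, *C1qb* fell by 1.13 (SE 0.14, adjusted p = 1.35e-05) and *Fcer1g*, the shared chain of Fc receptors, by 0.86 (SE 0.225, adjusted p = 0.0058). The most abundant gene of the list was *Cd14*, the co-receptor for bacterial lipopolysaccharide, at a mean of 316 CPM. Bulk libraries do not tell which cells made it, and the same holds for *Cd68* and *Spp1*. The 7 genes under the filter reached at most 39 counts in a library.

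Itaconate within lipid lowered 1 of these 10 genes and raised 0, beside 1.26% of all genes tested called lower. The 1 gene was *C1qb*, which went from 3.24 ± 0.791 to 2.06 ± 0.53 CPM (SD, n = 4; log2 fold change −0.66, SE 0.144, adjusted p = 0.0279). The call was lost in 7 of 15 alternative settings. The adjusted p was 0.345 without the replicate block, and 0.22 when lipid and lipid + ITA libraries were fitted alone. It was 0.0593 to 0.0784 without any 1 of lipid libraries A, B or C or of lipid + ITA libraries A or D. Itaconate against UT called 0 of the 10, beside 4.91% of all genes tested.

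Of 8 further Kupffer cell genes only *Slc40a1* and *Il18bp* passed the filter, and the other 6 reached at most 43 counts in a library. *Slc40a1* encodes the iron exporter ferroportin, which hepatocytes also make, and at a mean of 242 CPM it set the summed level of the list. Lipid lowered it by 0.45 on the log2 scale (SE 0.0529, adjusted p = 7.42e-06) and with itaconate by 0.37 (SE 0.0527, adjusted p = 4.9e-05). Within lipid, itaconate gave it a log2 fold change of 0.21 (SE 0.0529, adjusted p = 0.0449), a call lost in 9 of 15 alternative settings. *Il18bp*, which encodes the binding protein of interleukin-18, had a log2 fold change of −0.54 in itaconate against UT (SE 0.139, adjusted p = 0.0366), lost in 9 of 15. It was named after its values were seen.

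Of 12 genes of lipid-associated and recruited macrophages 6 passed the filter. Lipid raised 2 and lowered 3 of the 6 in each itaconate state, beside 47.5% of all genes tested that it called without itaconate and 47.0% with it. *Spp1*, which encodes osteopontin and was the most abundant of the list at a mean of 530 CPM, fell by 0.98 without itaconate (SE 0.0705, adjusted p = 5.39e-08) and by 0.68 with it (SE 0.0702, adjusted p = 2.46e-06). Without the replicate block the latter had an adjusted p of 0.0809. *Lpl*, the gene of lipoprotein lipase, fell by 0.88 (SE 0.107, adjusted p = 9.5e-06) and 1.35 (SE 0.107, adjusted p = 2.65e-07). *Cd9*, a tetraspanin gene, rose by 0.68 (SE 0.0481, adjusted p = 4.18e-08) and 0.64 (SE 0.048, adjusted p = 1.61e-07). The 6 genes under the filter, *Trem2* and *Ccr2* among them, reached at most 25 counts. Itaconate called 0 of the 6 within lipid, beside 2.58% of all genes tested, and against UT 1 lower, beside 2.95% called lower. This was *Lgals3* (log2 fold change −0.38, SE 0.102, adjusted p = 0.043), lost in 9 of 15 alternatives. *Fabp5* also fell in both, with adjusted p of 0.165 and 0.237 without the replicate block, and the second gene that rose was *Cd63* without itaconate and *Lgals3* with it, at 0.136 and 0.351 without the block. *Trem2*, *Ccr2*, *Lgals3*, *Fabp5* and *Cd63* were named after their values were seen.

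*Mmp12* belongs to the matrix metalloproteinases. Among 26 other members of that family and of its inhibitors, the TIMPs, 5 passed the filter and 6 were at 0 in all 16 libraries. Itaconate called 0 of the 5 with lipid and 0 without, beside 2.58% and 4.91% of all genes tested. Lipid raised 3 and lowered 1 of the 5 in each itaconate state, beside 47.5% of all genes tested that it called without itaconate and 47.0% with it. *Mmp14*, a membrane-bound protease and the most abundant at a mean of 115 CPM, rose by 0.36 without itaconate (SE 0.0556, adjusted p = 8.3e-05) and by 0.49 with it (SE 0.0553, adjusted p = 5.66e-06). *Mmp15*, named after its values were seen, also rose in both. *Mmp19* rose by 0.71 without itaconate (SE 0.116, adjusted p = 0.000147). *Mmp24* fell from 4.57 ± 1.11 to 1.93 ± 0.709 CPM without itaconate (SD, n = 4; log2 fold change −1.26, SE 0.2, adjusted p = 0.000111) and by 1.72 with it (SE 0.214, adjusted p = 1.35e-05).

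For the ligands and receptors of the CSF family, 3 of 7 genes passed the filter, and lipid raised 1 and lowered 1 in each itaconate state. Over all genes tested, lipid called 47.5% without itaconate and 47.0% with it. *Csf1*, a ligand of the receptor encoded by *Csf1r*, went from 17.5 ± 3.35 CPM in UT to 10.7 ± 1.09 CPM in lipid (SD, n = 4; log2 fold change −0.70, SE 0.136, adjusted p = 0.000627). In itaconate against UT its log2 fold change was −0.53 (SE 0.134, adjusted p = 0.0327), lost in 7 of 15 alternatives. With itaconate present, lipid gave it −0.44 (SE 0.139, adjusted p = 0.0169), lost in 4 of 15. *Csf2ra*, a receptor chain for GM-CSF, rose with lipid by 0.74 (SE 0.168, adjusted p = 0.00204) and with itaconate present by 0.69 (SE 0.173, adjusted p = 0.00405). *Csf2* was at 0 in all libraries.

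Of 13 activation genes 2 passed the filter. *Ccl2*, the gene of a monocyte-attracting chemokine, was the most abundant at a mean of 73.0 CPM. It fell with lipid by 2.09 (SE 0.23, adjusted p = 3.54e-06), and with itaconate present it fell by 1.65 (SE 0.225, adjusted p = 3.29e-05). *Mrc1*, which encodes the mannose receptor of macrophages and sinusoidal endothelium, went from 1.71 ± 0.475 CPM in lipid to 0.954 ± 0.315 CPM in lipid + ITA (SD, n = 4; log2 fold change −0.85, SE 0.21, adjusted p = 0.0441). That call was lost in 11 of the 14 alternative settings that gave an adjusted p, up to 0.415 without the replicate block, and DESeq2 gave none. *Acod1*, named after its values were seen, was under the filter with 8 to 42 counts in a library, and had group means of 0.783 CPM in UT, 0.721 in ITA, 0.452 in lipid and 0.408 in lipid + ITA.

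Markers of other cell types that a liver preparation can hold were read beside these genes. The 8 neutrophil genes summed to at most 0.202 CPM, led by *S100a9* at a mean of 0.0296 CPM, with *Ly6g* at 0 in all libraries. The 10 lymphocyte genes summed to at most 0.471 CPM, led by *Cd79a* at 0.137 CPM, with *Nkg7* at 0. Endothelial genes were present at low level. Of the 10, 8 passed the filter, led by *Cdh5* at 5.79 CPM, and the list summed to 18.4 to 30.7 CPM in UT, 15.4 to 23.6 in ITA, 18.4 to 32.7 in lipid and 15.3 to 26.9 in lipid + ITA. With lipid alone 1 was called higher and 1 lower, and with itaconate present 0 and 1, beside 47.5% and 47.0% of all genes tested. The lower gene was *Stab2* both times, which was named after its values were seen and lost its call in 5 and 10 of 15 alternatives. For *Lyve1*, a receptor gene of sinusoidal endothelium, the log2 fold change with lipid was 0.63 (SE 0.236, adjusted p = 0.038), lost in 10 of 14 alternatives. *Oit3* had one of −0.85 in itaconate against UT (SE 0.215, adjusted p = 0.0325), lost in 8 of 15. Stellate and fibroblast genes summed to 16.5 to 25.8 CPM, nearly all from *Reln* at a mean of 20.2 CPM, the 1 gene of 10 above the filter. Lipid in the presence of itaconate gave *Reln* a log2 fold change of −0.23 (SE 0.0878, adjusted p = 0.0411), lost in 8 of 15 alternatives. Cholangiocyte genes summed to 81.4 to 148 CPM, nearly all from *Sox9* at a mean of 112 CPM, the 1 gene of 7 above the filter. The other 6 reached at most 20 counts in a library. *Sox9* fell with lipid by 0.37 (SE 0.0555, adjusted p = 7.18e-05), and by 0.37 with itaconate present (SE 0.0553, adjusted p = 8.04e-05). Of the 9 hepatocyte genes, lipid raised 1 and lowered 3 without itaconate (*Asgr1* higher and *Alb*, *Fgb* and *Ttr* lower, named after their values were seen, with adjusted p of 0.405 for *Alb* and 0.173 for *Ttr* without the replicate block) and raised 1 and lowered 6 with it. Of those 7 calls, all but that of *Apob*, named after its values were seen, were lost without the replicate block. The hepatocyte calls with lipid also stand beside the 47.5% and 47.0% of all genes tested. The part of these cell types in the changes of the 10 genes was not tested.

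The genes closest to *Mmp12* in pattern were sought over the 16 libraries, as the root mean square difference of log2 CPM centred on each gene's mean, among 9644 genes of at least 5 CPM on average. The nearest were *Zfp428* at a difference of 0.306, *Sat1* at 0.314, *Rassf4* at 0.315, *2010320M18Rik* at 0.322 and *Depdc7* at 0.336. *Mmp12* itself had an SD of 0.529 on that scale, larger than the 0.287, 0.398, 0.357, 0.27 and 0.291 of these 5 in the same order. *Sat1*, which encodes the enzyme that acetylates spermidine and spermine, averaged 387 CPM in UT, 505 in ITA, 256 in lipid and 312 in lipid + ITA. *Zfp428* averaged 7.00, 9.20, 5.95 and 6.91 CPM in the same order. Of the other 9 macrophage genes, *Clec4f*, *Adgre1*, *Csf1r* and *C1qa* averaged under 5 CPM and so were not compared. None of the rest was among the 5.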

How the data were processed

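RNA-seq was analysed from 16 libraries of primary mouse hepatocytes in 4 groups, grouped by the treatment in the labels. Per the labels, polyadenylated RNA was prepared with a stranded ligation kit, and the submitters' processing notes name bcl2fastq 2.20, cutadapt 1.18, STAR 2.7.0f, Picard 2.18.26, RSEM 1.3.1 and mm10. The authors deposited expected counts per gene, estimated by RSEM, which can split reads shared by similar genes. These were rounded here. edgeR 4.0.16 (quasi-likelihood test, TMM, R 4.3.3) was fitted to all libraries with treatment and replicate letter, on the 11675 of 55450 genes that averaged 1 CPM or more. Benjamini-Hochberg adjustment ran over all genes tested, and a call is an adjusted p under 0.05. A call for a list gene uses the same rule, and list genes are named where they changed at least 1.5-fold, at most 4 a list and comparison, with the most abundant gene of each list. The values of 1 list gene that this rule names are not reported here. The genes, lists and tests were chosen with earlier results of these data known. RPKM used the union of the exons of all transcripts of a gene in GENCODE M21.

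Libraries that share a letter deviated together: the correlation of deviations from the group means was 0.131 to 0.543 over 24 pairs, against −0.486 to 0.243 (median −0.14) over 72 pairs of other letters. The letter was therefore kept as a block. The study also removed a batch in its own model, but does not say what that batch was. No 2 libraries of a group agreed within sampling noise (chi-square of 10 or more per gene). Alternatives were no replicate block, DESeq2 size factors, no filter, filterByExpr, DESeq2 1.42.0, limma-trend (limma 3.58.1), only the libraries of a comparison, and each library left out. The test was checked on simulated counts in which only lipid changed genes and the letters had no effect. That check therefore does not cover data in which letters deviate together.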

Additional observations from a re-analysis of the deposited data

Results flagged for a closer look

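*C1qa* in UT library A, at 2.44 CPM, stood far below the other 3 UT libraries at 5.05, 5.55 and 5.35 CPM. Among 40 groups of 4 libraries looked at, this was the 1 in which the gap to the nearest library, divided by the range of the group, passed Dixon's 95% critical value. Chance flags about 1 in 20 such groups. Letter A was also the lowest for *C1qa* in ITA, lipid and lipid + ITA.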

How the results depend on the processing

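For lipid + itaconate against lipid, 0 of the 10 genes were called. With no filter on low counts 3 were (*Clec4f*, *Csf1r* and *Mmp12*), beside 2.88% of all genes tested. With DESeq2 1 was (*Csf1r*), beside 4.36%. Leaving out 1 library gave 0 to 1, the 1 being *Mmp12* without lipid + ITA library C, where 7.61% of all genes tested were called. For itaconate against UT, calls of the 10 genes are not counted, since this comparison chose *Mmp12*. Of all genes tested, 0.197% were called there without the replicate block, against 4.91% in the reported fit. The share was 1.28% to 3.38% with 1 library left out, the lowest being without ITA library C. It was 4.34% with no filter, 6.78% with DESeq2 and 15.9% with UT and ITA fitted alone. Without the replicate block, 4 genes in place of 6 were called for lipid against UT, beside 35.5% of all genes tested. For lipid + itaconate against itaconate, *Clec4f* lost its call there, and 34.2% of all genes tested were called. DESeq2 size factors, filterByExpr and limma-trend gave the same counts as the reported fit for lipid + itaconate against lipid and for both lipid comparisons.

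Values near 0 changed sign. For lipid against UT, *Lyz2* was 0.00189 with no filter and −0.071 to 0.0658 with 1 library left out, *Csf1r* was −0.0377 without the replicate block and −0.14 to 0.238 with 1 library left out, and *Clec4f* was −0.247 to 0.105. For lipid + itaconate against lipid, *Cd5l* was −0.0478 to 0.268 and *Marco* −0.328 to 0.0481. For itaconate against UT, *Cd5l* was −0.0828 to 0.117 and *Clec4f* −0.288 to 0.0632, and the interaction of *Cd5l* was −0.1 to 0.22. The cause was not tested. Counts of 17 to 115 in a library for *Adgre1*, *Clec4f* and *Csf1r* limit their precision.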
